A study of Mus musculus with 2 samples.

Results

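The mouse HoxC cluster lies on chromosome 15 and holds 9 protein-coding genes, Hoxc13, Hoxc12, Hoxc11, Hoxc10, Hoxc9, Hoxc8, Hoxc6, Hoxc5 and Hoxc4. Its members here are the differentially methylated regions that overlap the cluster, from 102921131 to 103036856 (mm10), or the 5 kb on either side of it. There were 39 such regions among the 34139 in the authors' deposited list. They were chosen by position alone, although the arrangement of signs described here was known from earlier results when the cluster was picked. The list compares 1 bisulfite sequencing library of PDGFRα+ adipose progenitors with 1 library of CD137+ adipose progenitors. Both cell populations came from C57BL/6 adipose tissue, were taken from subcutaneous or visceral fat with magnetic beads, were cultured through adipogenic differentiation and carry the label of dexamethasone (DEX, a synthetic glucocorticoid) treatment. The depot behind each library, the number of animals and the dose are not stated in the labels. PDGFRα (CD140a) is a surface receptor of mesenchymal and adipose progenitors in general, and CD137 is a TNF receptor family member linked to beige fat precursors.

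HOX genes encode homeodomain transcription factors that give cells their position along the body axis. Within a cluster the genes stand in the order of the body levels at which they act, with high numbers at the posterior (tail) end and low numbers at the anterior end, and all are transcribed in the same direction. Polycomb proteins keep unused HOX genes silent, and DNA methylation in these CpG-rich clusters differs between cells of different origin. Fat cells and their precursors keep a HOX pattern that reflects the depot they came from.

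Each region carries a signed score made by the authors, which is used here only to describe, rank and filter regions. Its scale is not given. The list's title names the PDGFRα+ library before the CD137+ library. Under that order of subtraction, negative regions would be those less methylated in PDGFRα+ cells, but the order is not stated. Read coverage, CpG counts and methylation levels per library do not stand beside the score, so the depth behind each region is unknown. With 1 library per group there was no replicate error and no test. Both libraries were treated with dexamethasone, so no region can be read as a response to it. In bulk DNA, a different mix of cells and a different methylation level within the same cells cannot be told apart. Of the genes of the sorted antigens, Pdgfra had 2 regions within 5 kb, 1 of each sign, and Tnfrsf9, which encodes CD137, had 0. A list of regions holds no expression, so the cell types could not be checked further.

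From the posterior to the anterior end, the signs of the 39 regions formed 3 unbroken runs. The first 17 regions, from the spacer between Hoxc13 and Hoxc12 to just beyond Hoxc11, were all negative. The next 18, from just before Hoxc10 into Hoxc4, were all positive. The last 4, at the far end of Hoxc4 and beyond it, were all negative. In all, 21 regions were negative, or 53.8% (95% Wilson interval 38.6 to 68.4, counting of regions only), against 67.4% of the whole list, and 18 were positive, a sign that 32.6% of the list carried. Regions of 1 cluster are not independent of each other, and this difference was not tested.

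**Figure D1:**
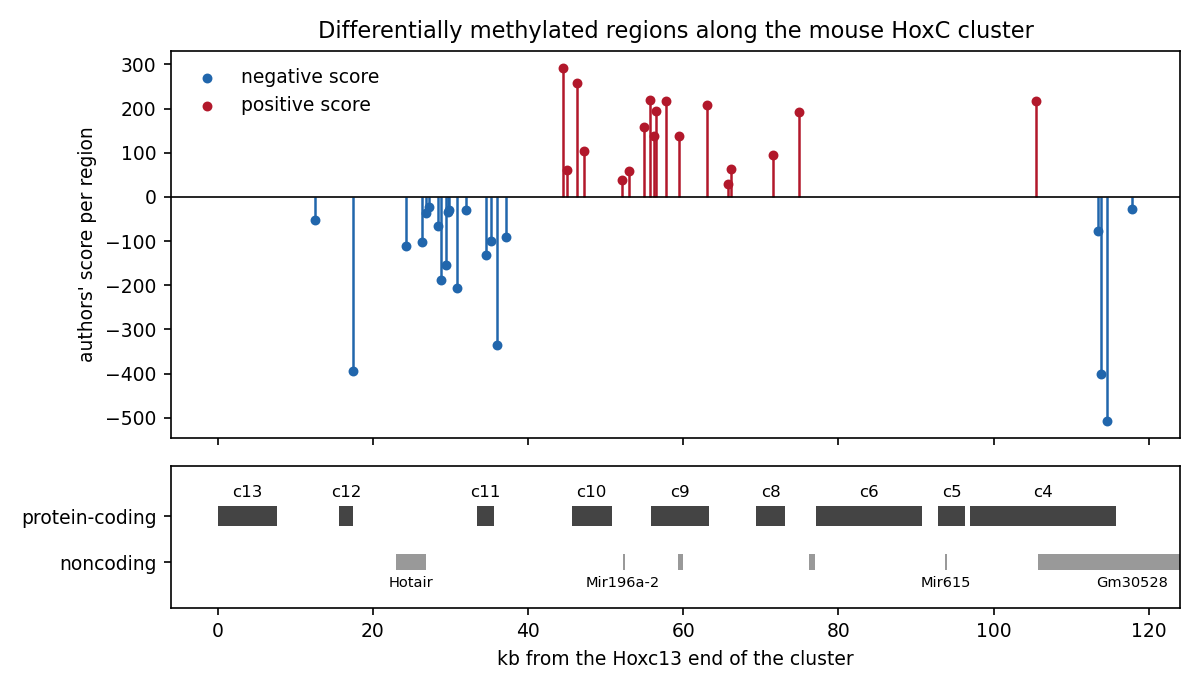
Authors' score of each of the 39 HoxC regions (upper panel) against distance in kb from the Hoxc13 end of the cluster, with negative scores in blue and positive scores in red, and the gene positions (lower panel: protein-coding genes in dark grey, labelled by their HoxC number, and noncoding genes in light grey). The 17 posterior regions all point down, the next 18 all point up, and the last 4 point down again, with a stretch of 30.2 kb over Hoxc6 and Hoxc5 that holds none.

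The sign changed at 2 places. The first change lay between Hoxc11 and Hoxc10. The last negative region (102957949 to 102958525) began 1.25 kb beyond Hoxc11 and scored -90.3, and the first positive region began at 102965394 with a score of 291, the highest of the cluster. The stretch between them was 6.87 kb long and the positive region ended 0.978 kb before Hoxc10. The second change lay inside the gene model of Hoxc4. A positive region ended at 103026805 with a score of 217, and 7.76 kb further a negative region began at 103034566 with a score of -76.0. Where within these stretches the difference between the libraries turned over is not resolved by the list.

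At the posterior end, Hoxc13, a gene of hair and nail formation, had no region inside it. Its nearest one, 4.78 kb beyond the gene, scored -51.8. Hoxc12 had a region of 659 bp across its far end (102938261 to 102938919) with a score of -394, the lowest of the posterior run. No other region lay inside Hoxc12, a gene 1.78 kb long.

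Between Hoxc12 and Hoxc11 lies Hotair, a long noncoding RNA gene (102944062 to 102947946) whose human counterpart was described as acting with Polycomb on the HoxD cluster. This spacer of 15.9 kb held 11 regions, all negative, more than any other gene or spacer of the cluster. The 2 regions inside Hotair scored -111 and -101. The 9 regions in the 6.58 kb from the end of Hotair to the start of Hoxc11 scored, in order, -35.8, -23.5, -64.8, -189, -154, -33.2, -29.1, -206 and -29.6. The one of -206 was the widest of the cluster, at 1163 bp (102951342 to 102952504), and its score per bp was low, at -0.177. Strong and weak regions thus alternated here under 1 sign.

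Hoxc11, which acts in hindlimb patterning, had 2 regions inside it with scores of -131 and -99.5. A further region of 647 bp, 0.082 kb beyond the gene, scored -336, and the last of the run, of 577 bp, scored -90.3. Within 5 kb, Hoxc11 had 11 regions, all negative. The whole posterior run spanned 24.9 kb, and its regions covered 21.1% of that length.

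Hoxc10, a hindlimb-level gene that is also a marker of subcutaneous fat and, in mice, a repressor of browning, had only positive regions. The 2 before the gene scored 291 and 61.8, and the 2 inside it scored 257 and 103. Within 5 kb there were 8, all positive. Hoxc10 and Hoxc11 are neighbours, 10.1 kb apart, and no region within 5 kb of one had the sign found at the other.

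Between Hoxc10 and Hoxc9 lies Mir196a-2, a microRNA gene. In mice, miR-196a represses Hoxc8 in white fat progenitors and favours their beige conversion, and miR-196 also represses Hoxb8. The mature sequences of the miR-196 genes are shown because the same seed is encoded in 3 HOX clusters whose surrounding regions carried different signs. They are taken from RefSeq (GRCm38.p6, the assembly that mm10 names), written 5′ to 3′ with the seed (bases 2 to 8) in capitals.
mmu-miR-196a-5p from Mir196a-2 in HoxC (chr15:102973365-102973386, + strand): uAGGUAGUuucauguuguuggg
mmu-miR-196a-5p from Mir196a-1 in HoxB (chr11:96265187-96265208, + strand): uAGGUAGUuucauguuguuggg
mmu-miR-196b-5p from Mir196b in HoxA (chr6:52230129-52230150, - strand): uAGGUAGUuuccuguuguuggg

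Mir196a-2 had 7 regions within 5 kb, all positive. The nearest, 0.082 kb before its hairpin, scored 38.8, and the next on the other side, 0.578 kb beyond it, scored 59.8. In HoxB, Mir196a-1 had 5 regions within 5 kb, all negative, and the one that touched its hairpin scored -41.6. In HoxA, Mir196b had 2, both negative, the nearer scoring -127. The same mature miR-196a-5p is thus made from 1 gene among positive and 1 gene among negative regions. These regions are shared with the neighbouring HOX genes.

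Hoxc9, which sets thoracic identity in motor neurons and is a known marker of white fat precursors, had the most regions inside it of any member, 6, all positive. In order they scored 220.4, 139, 195, 218, 137 and 209, and none was below an absolute score of 100. The first of them (102976689 to 102977032) reached the first base of the gene, and another of 157 ended 0.841 kb before it. The region of 218 had the highest score per bp of the cluster, 1.25, over 175 bp. With the neighbours in reach, Hoxc9 had 11 regions within 5 kb, all positive. The region of 137 also overlapped Gm36878, a noncoding RNA gene within Hoxc9, and could not be assigned to either alone.

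Hoxc8, a thoracic-level gene and the miR-196a target named above, had a single region inside it, with a score of 94.2. Before it, 2 weak regions in the spacer to Hoxc9 scored 30.2 and 62.7. Beyond it, a region of 272 bp between Hoxc8 and Hoxc6 scored 193. The 4 regions within 5 kb were all positive.

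Hoxc6, a thoracic-level gene, and Hoxc5 had no region inside them. The 19.2 kb from the start of Hoxc6 to the end of Hoxc5 held 0 regions, although it also contains Mir615 inside Hoxc5. The nearest region to Hoxc6 was the one of 193, 2.05 kb before it. The nearest to Hoxc5 was the one of 217, 8.98 kb beyond it, so Hoxc5 was the only member without a region within 5 kb. The 30.2 kb between these 2 regions was the widest gap of the cluster, where the median gap between neighbours was 0.632 kb. Both regions at its edges were positive. Without coverage, a stretch with no difference and a stretch that could not be called cannot be told apart.

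Hoxc4, an anterior member active at cervical levels and in B cells, held both signs. Its gene model in the RefSeq table is the longest of the cluster, 18.8 kb (103018097 to 103036856). The positive region of 217 inside it lay 1 bp outside the noncoding gene Gm30528, and the 3 negative regions near the far end of the gene scored -76.0, -401 and -506. These 3 covered 1.21 kb of the 1.46 kb from 103034566 to 103036029, and they also lie within Gm30528. The one of -506, of 665 bp, was the strongest of the cluster and ranked 88 among all regions of the list by absolute score. A last region beyond the gene scored -26.6.

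The RefSeq promoter table (GRCm38.p6) lists a window, 250 bases before to 50 after a gene's start, for 1 of the 9 members, Hoxc4. It is shown because the group of 3 negative regions in Hoxc4 begins 121 bases past it, with the region of -76.0, and goes on to those of -401 (from 103034736) and -506 (from 103035365). The window lies on chr15:103034145-103034444 (+ strand), with each CG in capitals.
Hoxc4: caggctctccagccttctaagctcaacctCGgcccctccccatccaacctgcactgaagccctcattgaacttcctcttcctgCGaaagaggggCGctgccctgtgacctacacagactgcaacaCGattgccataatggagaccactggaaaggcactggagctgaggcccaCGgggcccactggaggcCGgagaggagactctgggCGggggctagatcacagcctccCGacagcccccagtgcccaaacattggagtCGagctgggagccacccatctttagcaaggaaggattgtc

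This window held 9 CG dinucleotides, against a median of 7 (quartiles 3 and 20) over the 32851 windows of the table. No region overlapped it. Neither AGAACA, the core hexamer of glucocorticoid receptor sites, nor GGAATG, the TEAD site, was found in it on either strand. Of all windows 19.0% held the first and 14.7% the second. The Hoxc4 gene model starts 16.3 kb before the start used for this window, so another start of the gene stands outside it.

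By gene, 8 of the 9 members had a region within 5 kb, against 35.1% of the 21887 protein-coding genes of the RefSeq table. Members with only positive regions were 4 (Hoxc10, Hoxc9, Hoxc8 and Hoxc6), against 7.33% of all genes. Members with only negative regions were 3 (Hoxc13, Hoxc12 and Hoxc11), against 18.2% of all genes, and Hoxc4 alone had both. Hoxc11, Hoxc10 and Hoxc9 each had 8 or more regions, against 2.09% of all genes. Neighbouring members share regions, so these counts are not of independent genes.

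The HoxC regions were wider and had larger scores than the list as a whole. Their median width was 217 bp, against 112 bp over the list, and their median absolute score was 111, against 49.4. An absolute score of 100 or more was found in 22 of the 39, or 56.4%, against 15.5% of the list, and 200 or more in 11, against 3.21%. These traits were not particular to HoxC. In HoxA and HoxB the median widths were 178 and 172 bp and the median absolute scores 93.6 and 68.7. Absolute scores of 100 or more made up 44.2% and 32.5% there. HoxA was denser than HoxC, at 3.72 against 3.10 regions per 10 kb, and its lowest score was -2115, against -506. The 4 regions of HoxD had a median width of 77.5 bp, and none reached 100. Scores grow with width in this list, so classes of width were also compared. Among regions of 300 bp or more the median absolute score was 219 in HoxC (14 regions) and 125 in the rest of the list (3415 regions). From 150 bp to under 300 bp it was 111 (13 regions) and 74.9 (8294). Under 150 bp it was 37.3 (12 regions) and 40.3 (22391). The larger scores of HoxC were thus seen among its wider regions. The widest class has no upper limit, so width is not matched within it. Per bp, the median absolute score was 0.544 in HoxC and 0.430 over the list, whose quartiles were 0.318 and 0.577. By this measure the HoxC median lay inside the middle range of the list. Between the runs, the median score was -99.5 in the posterior run, 148 in the positive run and -239 over the 4 anterior regions. The median score per bp was -0.513, 0.578 and -0.700 in the same order.

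**Figure D2:**
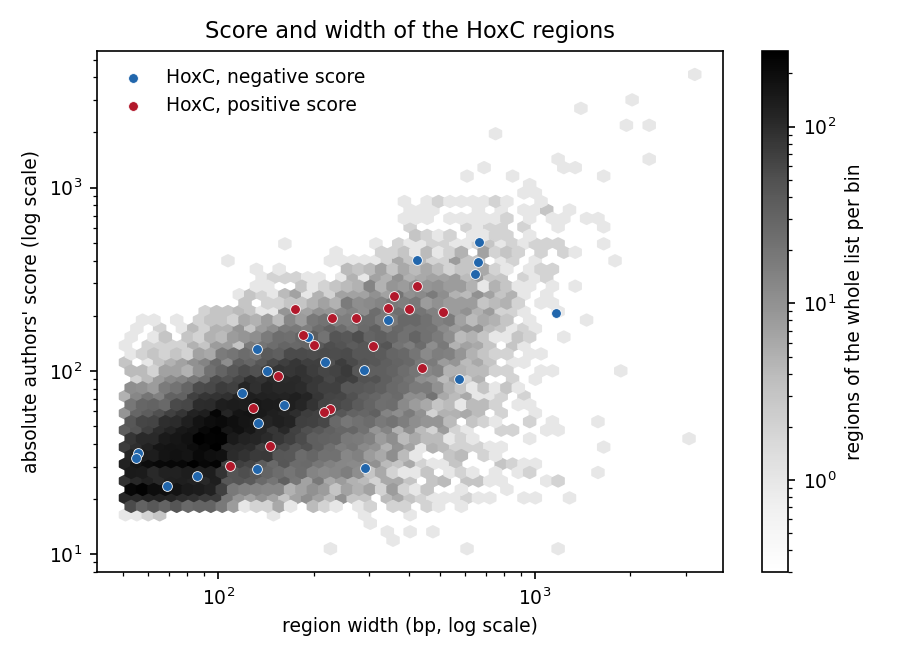
Absolute authors' score against region width (both log scales) for the 39 HoxC regions (blue negative, red positive) over all 34139 regions of the list (grey, number per bin). HoxC regions of both signs lie along the same rise of score with width, with medians of 217 bp and 111.

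Around the cluster, regions were sparser than inside it. The span held 3.10 regions per 10 kb, against 0.30 in the 200 kb before it and 0.35 in the 200 kb beyond it. The nearest 50 kb held 0.20 per 10 kb before the span and 1 per 10 kb beyond it. The flanks are set beside the span only, so whether they are sparse for chromosome 15 is not shown. The nearest region outside on the Hoxc13 side lay 26.0 kb from the cluster with a score of -111, and on the Hoxc4 side 21.4 kb away with a score of -58.3. The outermost regions inside the span were that of -51.8, 12.5 kb in from the Hoxc13 end of the cluster, and that of -26.6 beyond Hoxc4. All 5 regions of the 50 kb beyond the span were negative, the lowest scoring -463, as was the single one of the 50 kb before it. The nearest protein-coding genes outside were Calcoco1, with no region within 5 kb, and Smug1, which encodes a uracil-DNA glycosylase, with 1 positive region of 81.8.

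Neighbouring regions in HoxC mostly shared their sign. Of the 37 neighbouring pairs at most 10 kb apart, 35 (94.6%) had the same sign, against 73.5% of 8509 such pairs in the rest of the list. For pairs at most 1 kb apart the shares were 20 of 20 in HoxC and 94.5% of 2617 pairs in the rest. The pairs of HoxC were closer together. Of its 37 pairs 20 lay within 1 kb, against 2617 of 8509 in the rest, where close pairs shared their sign more often. The shares at 10 kb are therefore not at like spacing. The cluster was also picked with its arrangement of signs known. These are descriptions of 1 list, with no test.

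The same paralogue group did not carry the same sign in every cluster. HoxC held both signs in long blocks. Over the same kind of span, HoxA had 38 of 43 regions negative in 6 runs, and HoxB 37 of 40 in 6 runs. Long runs of 1 sign were not particular to HoxC. The longest held 18 regions in HoxC, 13 in HoxA and 19 in HoxB, those of HoxA and HoxB being negative. HoxD had only 4 regions. In group 10, Hoxc10 had 8 positive regions and no negative one, Hoxa10 had 12 regions, all negative, and Hoxd10 had 1 positive. In group 9, Hoxc9 had 11 positive regions, Hoxa9 had 4 negative and 1 positive, Hoxb9 had 5 negative and Hoxd9 had 1 positive. In group 8, Hoxc8 had 4 positive regions, Hoxb8 had 5 negative and 1 positive, and Hoxd8 had none. The positive block of HoxC thus covered groups that were mainly negative in HoxA and HoxB, where those clusters have a gene of the group. HoxB has none of group 10 and HoxA none of group 8. The positive region of Hoxd10 and Hoxd9 is 1 shared region. Neighbouring genes of the other clusters share regions too, such as most of those of Hoxb9 with Hoxb8.

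**Figure D3:**
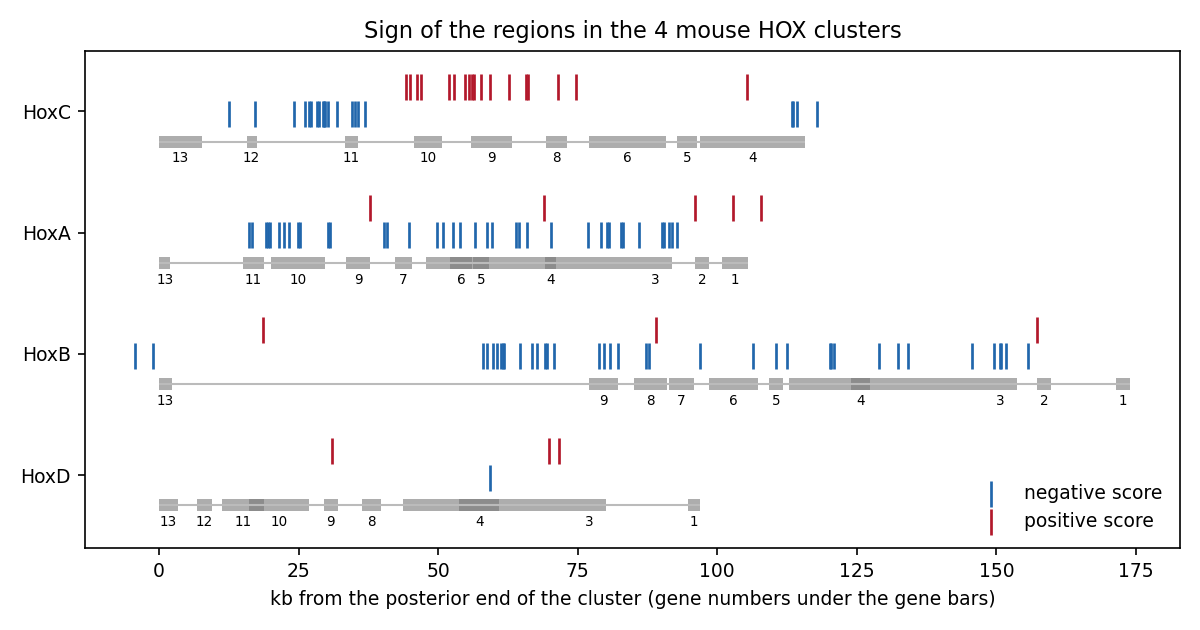
Regions of the HoxC, HoxA, HoxB and HoxD clusters, each drawn as a tick at its distance in kb from the posterior end, with positive scores (red) above negative scores (blue) and grey bars for genes with their numbers below. In HoxC the red ticks stand together from gene 10 to gene 8 and once in gene 4, whereas HoxA and HoxB are mainly blue and HoxD has 4 ticks.

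At both ends of HoxC the signs were mainly those of the paralogues that had a region. In groups 11 to 13 these paralogues were only Hoxa11 and Hoxb13. Most regions of HoxA and HoxB were negative, so a negative stretch elsewhere in HoxC would mostly have shared their sign too. In group 11, Hoxc11 had 11 regions and Hoxa11 had 8, all negative, and Hoxd11 had none. The 8 of Hoxa11 are all among the 12 counted above for Hoxa10, so the same HoxA regions enter groups 10 and 11. In group 13, Hoxc13 had 1 and Hoxb13 had 2, all negative, and Hoxa13 and Hoxd13 had none. In group 4, Hoxc4 had 4 negative regions and 1 positive, Hoxa4 had 3 and 1, Hoxb4 had 4 and 0, and Hoxd4 had 1 and 0. The strongest scores were -506 at Hoxc4, -497 at Hoxa4, -198 at Hoxb4 and -69.9 at Hoxd4. In group 12, Hoxc12 had 2 negative regions and Hoxd12 none. In group 6, Hoxc6 had 1 positive region, against 7 negative at Hoxa6 and 3 negative at Hoxb6. In group 5, Hoxc5 had none, against 7 negative at Hoxa5 and 3 negative at Hoxb5. Most regions of Hoxa5 are also among those of Hoxa6, and most of Hoxb5 among those of Hoxb6.

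**Figure D4:**
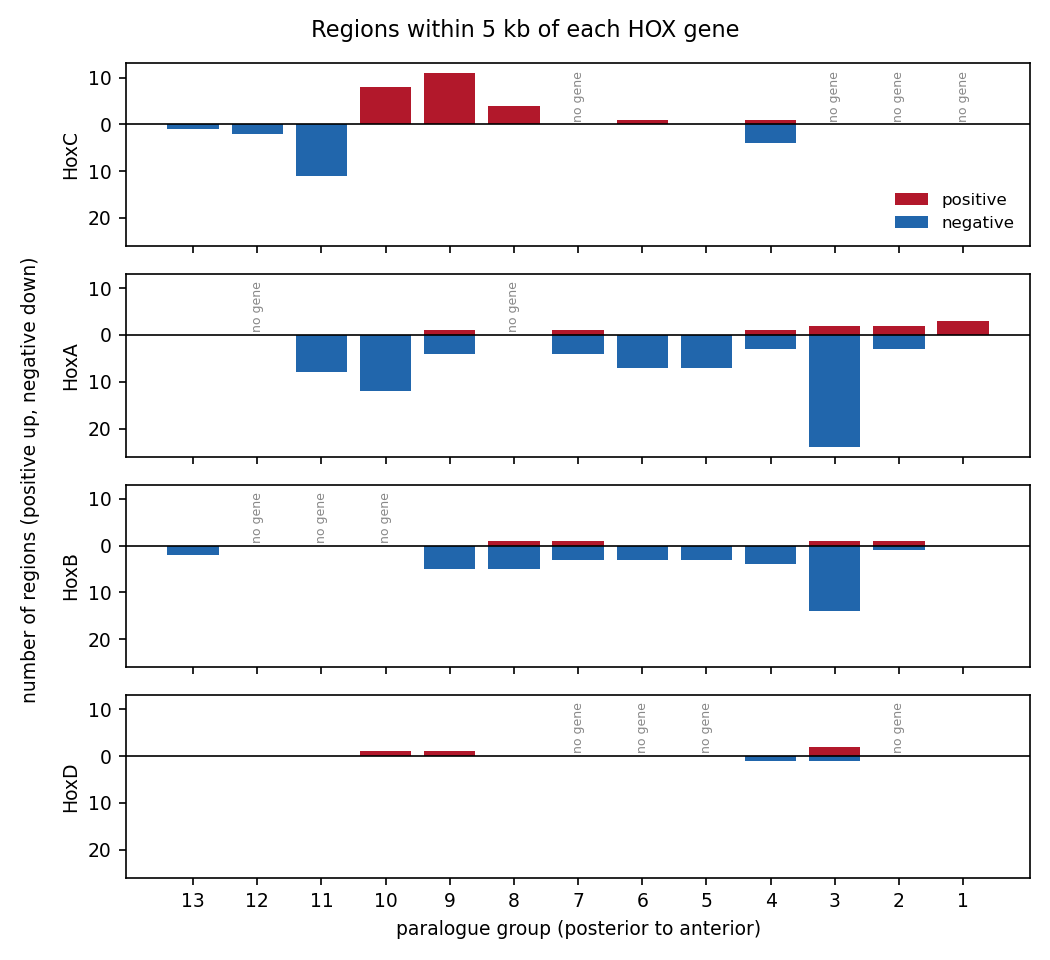
Number of regions within 5 kb of each HOX gene, by paralogue group from 13 to 1, with positive regions drawn upward in red and negative regions downward in blue, for HoxC, HoxA, HoxB and HoxD. Groups 10, 9 and 8 point up in HoxC (8, 11 and 4 regions). Group 10 points down in HoxA, group 9 mainly down in HoxA and HoxB, and group 8 mainly down in HoxB. HoxB has no gene of group 10 and HoxA none of group 8. In HoxD, groups 10 and 9 point up with 1 shared region. Neighbouring genes of the other clusters share regions as well. Group 4 points mainly down in all 4 clusters.

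Genes that work with or on HOX genes were counted in the same way. A longer gene has a wider window for regions, and the lists were not matched to all genes by length. Meis1 is 139 kb long and Pknox2 256 kb. Over all protein-coding genes, 35.1% had a region within 5 kb, 18.2% had only negative and 7.33% only positive ones, and the median was 0 regions per gene. Of 8 cofactor genes of the Meis, Pbx and Pknox families, whose products bind DNA together with HOX proteins, 6 had a region within 5 kb, 4 of them only negative ones, and the median was 1 region per gene. Of their 42 regions 40 were negative, against 67.4% of the list. The strongest scored -268 at Meis1, -226 at Pknox2, -163 at Meis2 and -73.0 at Pbx2. Meis1, with 29 regions, all negative, held most of them. Negative is the sign of the 2 outer runs of HoxC and also of most of the list.

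Of 9 upstream regulators of HOX genes, 4 had a region (median 0), with 10 of 14 regions positive, against 32.6% of the list. With 9 genes, a count of 4 is near the share of all genes. The strongest scored 291 at Cyp26b1, 219 at the caudal gene Cdx1, -101.4 at Cyp26a1 and 82.1 at the retinoic acid receptor gene Rarb. Cyp26 enzymes break down retinoic acid, which switches on anterior HOX genes. Of 18 Polycomb, Trithorax and insulator genes, 9 had a region (median 0.50). Counted gene by gene, 13 of 24 regions were negative, against 67.4% of the list. The 2 positive regions of Cbx2 are also among the 3 of its neighbour Cbx8, so they entered this count for both genes. The strongest scored 515 at Cbx8 and 298 at Bmi1, both Polycomb genes, -133 at the Trithorax gene Kmt2a and 131 at the Polycomb gene Phc2. Ezh2, Eed and Suz12, the core of Polycomb complex PRC2, and the insulator gene Ctcf had none. Ezh1, of the same list, had 3 regions, all negative, the strongest scoring -69.2.

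Markers of other cells that a sort could carry along had regions in 2 of 5 mesothelial genes, 3 of 5 blood genes and 5 of 5 endothelial genes, with 7 of 9, 5 of 12 and 14 of 26 regions negative. Beside these stand the 35.1% of all protein-coding genes with a region and the 67.4% of the list that was negative. Gene length was not matched here either, and the endothelial genes ranged from 42.9 kb (Cdh5) to 227 kb (Erg). Whether other cells take part in the pattern of HoxC was not tested.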

How the data were processed

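The deposited file is the authors' list of differentially methylated regions between 1 PDGFRα+ and 1 CD137+ library, without a header. Each row holds a position and a signed score. The deposited score has no stated scale, and it is the authors' own value per region. Per the submitters' processing notes, positions are on mm10. How reads were aligned and regions called, and at what coverage, is not given in the sources used here. Starts are printed 1-based, with the list read as BED. Genes, miRNAs and promoter windows came from RefSeq tables of GRCm38.p6, which mm10 names. The gene table has no strand or exons, so exons, introns and UTRs could not be told apart. All 9 members matched by symbol. A region belonged to a window when they shared at least 1 bp. No test was run, since each group had 1 library. The members, lists and named genes were chosen with earlier results of these data known. The named genes include all 9 members, the noncoding genes of the span, the flanking genes and the paralogues. They also include up to 4 genes per list by absolute score, and Ezh1, Ezh2, Eed, Suz12 and Ctcf. 1 gene of the cofactor list is not reported here. Overlap counting and run finding were tested on simulated data. Python 3.11.15, pandas 2.3.3 and scipy 1.17.1 were used.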

Additional observations from a re-analysis of the deposited data

How the results depend on the processing

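Of 35 values recomputed (5 results under 7 alternatives), 31 stayed within 1.5 times the reported count or inside the reported interval of the share. The 5 results rest on the same regions, and that interval is wide, so the 31 are not separate checks. The cluster kept 3 runs of 1 sign under all 7. Most alternatives could not have given more runs. Filters can only remove a run, joining neighbours of the same sign leaves the number of runs as it is, and the midpoint rule kept the same 39 regions. Only the padding of 50 kb brought in new regions. With only regions of an absolute score of 100 or more, the count fell to 22 regions, or 1.75 per 10 kb, since fewer regions enter. When neighbours of the same sign less than 500 bp apart were joined, 22 remained, again 1.75 per 10 kb, in runs of 7, 13 and 2. The negative share ranged between 40.9% and 60.0%, inside the reported interval, and the number of members with a region between 6 and 9. No paired analysis was possible because each group has 1 library. The unknown coverage limits what stretches without regions can show.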

Other observations

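The meeting of long runs of opposite sign was counted over the whole list, with settings chosen after the pattern of HoxC was known. Where neighbours were at most 50 kb apart, 78 runs held 10 or more regions of 1 sign, 63 of them negative. In 1 place a run of 10 or more of 1 sign was followed directly by a run of 10 or more of the other, and that place was the stretch between Hoxc11 and Hoxc10. With runs of 8 or more there were 2 such places, both in HoxC, since the second change then counts with the negative regions beyond Hoxc4. With runs of 5 or more there were 9, of which 2 were in HoxC. With gaps of up to 100 kb allowed, runs of 8 or more gave 4 places and runs of 5 or more gave 31. Again 2 were in HoxC at either setting.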
